A study of Schizosaccharomyces pombe with 4 samples.

Results

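The copper and zinc homeostasis genes examined here are ctr4 (SPCC1393.10), ctr5 (SPAC1142.05), cuf1 (SPAC31A2.11c), pccs (SPAC22E12.04, ccs1 in RefSeq), zrt1 (SPBC16D10.06), zym1 (SPAC22H10.13), loz1 (SPAC25B8.19c), zhf1 (SPAC23C11.14) and cis4 (SPAC17D4.03c). They were chosen by gene identifier, as 4 copper and 5 zinc genes, and all 9 are among the 5143 genes of the table for 24°C. Poly(A) RNA of fission yeast (Schizosaccharomyces pombe) was sequenced from wild type and from S. pombe fas S.j., whose cytosolic fatty acid synthase genes fas1 and fas2 were exchanged for those of Schizosaccharomyces japonicus, marked with kanR and hygR. According to the study, the open reading frames of both genes were exchanged and their native S. pombe regulatory contexts were kept. Both strains were grown overnight to the exponential phase in YES, a rich medium, either at 24°C or at 30°C. The strain list of the study gives a prototrophic h- wild type and holds fas S.j. both as an h+ prototroph and as an h- strain with mutant alleles of ade6, ura4 and leu1, and the sample labels do not say which of these was sequenced. Each of the 4 libraries is the only one of its strain and temperature, so no difference below has a replicate check and no test was made. The replaced genes followed the labels: at 24°C the level of S. pombe fas1 was 301 FPKM in wild type against 7.35 in fas S.j., and that of fas2 was 336 against 0.320.

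Copper and zinc are cofactors that cells must take up without letting them accumulate. In S. pombe the plasma membrane proteins Ctr4 and Ctr5 form one complex that imports copper, and the copper-sensing transcription factor Cuf1 activates their genes when copper is scarce. Pccs hands copper to the superoxide dismutase Sod1. Zrt1 imports zinc at the plasma membrane, the zinc finger protein Loz1 represses zinc uptake genes including zrt1 when zinc is sufficient, Zhf1 moves zinc into the endoplasmic reticulum, Cis4 moves it into the Golgi, and the metallothionein Zym1 binds it.

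At 24°C none of the 9 genes passed a log2 difference of 0.8 between the strains, the fold limit in the study's methods. Changes are given as log2 of FPKM + 1 in fas S.j. over FPKM + 1 in wild type, where FPKM counts fragments per kilobase of transcript and per size of the library. Of 4943 genes whose mean FPKM reached 1, 4.19% were higher in fas S.j. by more than 0.8 and 2.08% lower. Of the 9 genes, 6 (66.7%) lay within 0.25 of no change, next to 65.9% of all genes. The median of the 9 was -0.05 and that of all genes was 0.00. The 3 genes outside that band were zym1, higher in fas S.j., and ctr4 and cuf1, lower. FPKM is a share of a library, so less of a transcript and more of all the others cannot be told apart.

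**Figure D1:**
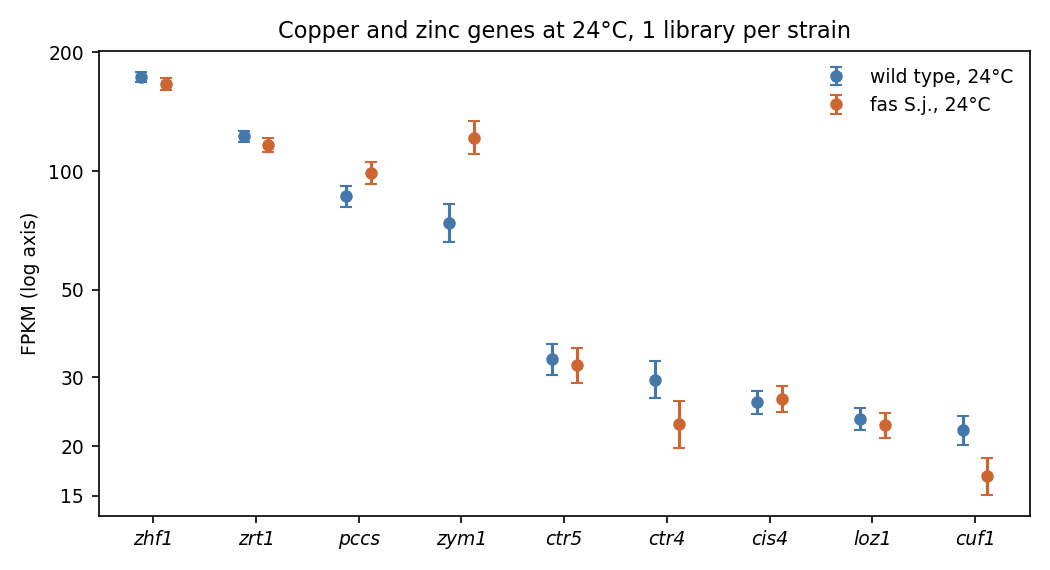
FPKM of the 9 genes at 24°C on a log axis, with wild type in blue and fas S.j. in orange, 1 library each. Bars are 95% intervals of counting error from estimated reads. The intervals of the pairs of ctr4, cuf1, pccs and zym1 do not overlap, and zym1 has the widest gap, at 74.0 and 122 FPKM. The share of all genes without overlap was not computed, so this is no trait of the 9.

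The tables hold no read counts, but at 24°C the depth could be read from low values. For genes with 1 exon and alone in their locus, FPKM multiplied by the gene length less 210 or 215 bases fell on whole multiples of 0.0742 for wild type and 0.0934 for fas S.j. The product was within 0.15 of a whole read for 34 of 35 genes of wild type and 20 of 20 of fas S.j. The bases subtracted and the step were chosen to fit these same genes best, so this share is no separate check of the depth. By these steps the libraries correspond to about 13500000 and 10700000 reads, and the 9 genes have between 206 and 4332 estimated reads each. The 95% intervals given with the values come from these estimated reads, with exact Poisson limits for levels and exact Clopper-Pearson limits for log2 ratios without a pseudocount. They cover counting error only and say nothing of the spread between cultures. The share of all genes whose intervals do not overlap between the strains was not computed. Depth at 30°C was not estimated.

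The copper importer was examined first. At 24°C the level of ctr4 was 29.6 FPKM in wild type and 22.8 FPKM in fas S.j., which gives a change of -0.36, with a counting interval of the log2 ratio from -0.64 to -0.12. Its partner ctr5 had 33.3 FPKM in wild type and 32.2 FPKM in fas S.j., which is a change of -0.05 with an interval from -0.25 to 0.15. Thus ctr4 was lower in fas S.j. and ctr5 nearly level, and the ratio of ctr4 to ctr5 was 0.887 for wild type and 0.707 for fas S.j. However, the counting intervals of the log2 ratios of ctr4 and ctr5 overlap, so their changes are not clearly apart. The counting limits of the ctr4 levels, 26.5 to 32.9 FPKM and 19.8 to 26.1 FPKM, left a narrow gap, and those of ctr5 overlapped. In ASM294v3 ctr4 lies at chrIII:818459-819361 and ctr5 at chrI:3635409-3636572, both on the plus strand and alone in their Cuffdiff locus, so their reads were not divided with a neighbour.

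The regulator cuf1 (chrI:407714-409845, minus strand, alone in its locus) had 21.98 FPKM in wild type and 16.8 FPKM in fas S.j. Its change of -0.37 was the lowest of the 9, and the interval of its log2 ratio ran from -0.58 to -0.19. The levels with their counting limits, 20.2 to 23.8 FPKM and 15.1 to 18.7 FPKM, did not overlap. It also had the lowest level of the 9 in both libraries. Among all genes that passed the minimum of 1, 7.22% had a change below that of cuf1 and 7.44% one below that of ctr4. The copper chaperone gene pccs was on the other side of 0, with 86.3 FPKM in wild type against 98.8 FPKM in fas S.j., a change of 0.19 with an interval from 0.06 to 0.32. The counting limits of its levels, 81.1 to 91.8 FPKM and 92.5 to 105 FPKM, did not overlap. The gene lies at chrI:5024833-5026218 on the plus strand and has 4 exons. Its locus also holds rer1 on the opposite strand, whose annotated end overlaps that of pccs by 76 bases and whose change was 0.06.

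Sequence before the start codon of copper genes is shown because Cuf1 acts through a short DNA word, the copper-signalling element (CuSE). It was searched as DTDDHGCTGD, where D is A, G or T and H is A, C or T. Forms with other letters were not searched, so a gene without a match may still hold the element. The search covered both strands in the 500 bases before the start codon, a window called the promoter here, which can include 5′ leader. A match occurred in 23% of 5144 promoters of protein-coding genes, 2 or more in 2.76% and 3 or more in 0.214%. Of the 9 genes, 2 had a match, ctr5 with 3 matches and pccs with 1. Of the 10 further copper handling genes examined, ctr6 (the vacuolar copper exporter), ccc2 and cox17 had 1 each, and of the zinc enzyme genes adh1 had 1. The stretch of ctr6 is printed with those of the 9 genes because Cuf1 is known to activate ctr6. The matches are in capitals, with 8 flanking bases on each side, 5′ to 3′ on the coding strand of the gene and read from the RefSeq assembly ASM294v3.
ctr5, 473 to 464 bases before the start codon, chrI:3635284-3635309, plus strand: tggcgggaATTTTGCTGAgcgattat
ctr5, 459 to 450 bases before the start codon, chrI:3635298-3635323, plus strand: ctgagcgaTTATAGCTGGtagttttt
ctr5, 343 to 334 bases before the start codon, chrI:3635414-3635439, plus strand, element on the opposite strand: ttgagcgtTCAGCTTAATtgaacatt
pccs, 404 to 395 bases before the start codon, chrI:5024524-5024549, plus strand, element on the opposite strand: taacaattACAGCTAAATggtcttta
ctr6, 210 to 201 bases before the start codon, chrII:2100055-2100080, plus strand: tagtgtacGTGGTGCTGGagtggatc
The first and second ctr5 stretches are neighbours, and their printed flanks overlap. Both lie before the annotated start of the ctr5 transcript, while the third lies just inside it, in the 5′ leader. The gene with 3 matches, ctr5, had a log2 change of -0.05 between the strains, ctr6 one of 0.04, pccs one of 0.19, ccc2 one of 0.13 and cox17 one of -0.04. In ctr4 the form searched was not found in the window, which does not show that ctr4 lacks the element.

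The Loz1 response element, searched in the same windows, occurred in 0.467% of promoters, and CGNNGATC, which is part of it, in 4.82%. Neither was found in the window of any of the 9 genes. Among the further genes examined, ccc2 and SPBC1348.06c had CGNNGATC, and none had the full element in this window. Where the 5′ leader is long, as it may be for zrt1, this window lies partly or wholly inside it. A site before such a transcript would then be missed, so the genes may still hold the element. The word TGACGT, to which the S. pombe stress regulator Atf1 binds, was found in 8.01% of promoters. Of the 9 genes, pccs had it once, 194 to 189 bases before the start codon (chrI:5024734-5024755, plus strand, ASM294v3), shown in capitals: ttaaaaatTGACGTtcatattt. Among the further genes examined, sco1, cao1, zip2, adh4 and fba1 also had TGACGT. No match of the 4 words was found for zym1, whose change was the largest of the 9.

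The metallothionein gene zym1 had 74.0 FPKM in wild type at 24°C, against 122 FPKM in fas S.j. Its change of 0.71 was the highest of the 9, and the counting interval of its log2 ratio, from 0.51 to 0.93, reached across the limit of 0.8. At this change, 94.9% of all genes that passed the minimum lay below zym1. In the order of levels it was 4th of the 9 in wild type and 2nd in fas S.j. The levels with their counting limits, 66.1 to 82.5 FPKM and 110 to 134 FPKM, did not overlap. The gene lies at chrI:2381666-2382200 on the plus strand. Cuffdiff placed it in a locus with scd2 and SPAC22H10.06c, neither of which overlaps it in ASM294v3. The change of scd2 was -0.13, and SPAC22H10.06c is listed at 0 in both libraries.

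The zinc importer gene zrt1 had 122 FPKM in wild type at 24°C and 116 FPKM in fas S.j., a change of -0.07 with an interval from -0.15 to 0.00. Its regulator gene loz1 had 23.5 and 22.6 FPKM, a change of -0.05. Transporter genes for the inner compartments were as close to level. For zhf1, the most abundant of the 9, the values were 173 FPKM in wild type and 167 FPKM in fas S.j., a change of -0.06. For cis4 they were 25.9 and 26.4 FPKM, a change of 0.03. Among the 5 zinc genes at 24°C, zym1 was therefore the one outside 0.25, and the counting intervals of the other 4 included 0.

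In ASM294v3 zrt1 lies at chrII:3607177-3609330 and zhf1 at chrI:2158307-2160086 on the plus strand, and loz1 at chrI:4192070-4195213 and cis4 at chrI:4726782-4729341 on the minus strand. Of these, zhf1 is alone in its locus, and neighbours make the other 3 values less certain. For zrt1, sir2 on the opposite strand overlaps the annotated end by 114 bases and differed by -0.08. In the locus of loz1, SPAC25B8.18 overlaps by 88 bases on the opposite strand and differed by 0.43, and ypf1, which does not overlap, differed by 0.08. For cis4, cdc45 overlaps by 65 bases on the opposite strand and differed by -0.44. The libraries were strand-specific, but whether strand was used in counting is not given in the sources used here. None of the 9 genes has a near-identical copy in ASM294v3, taken as 90% identity over 50% of the coding length.

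**Figure D2:**
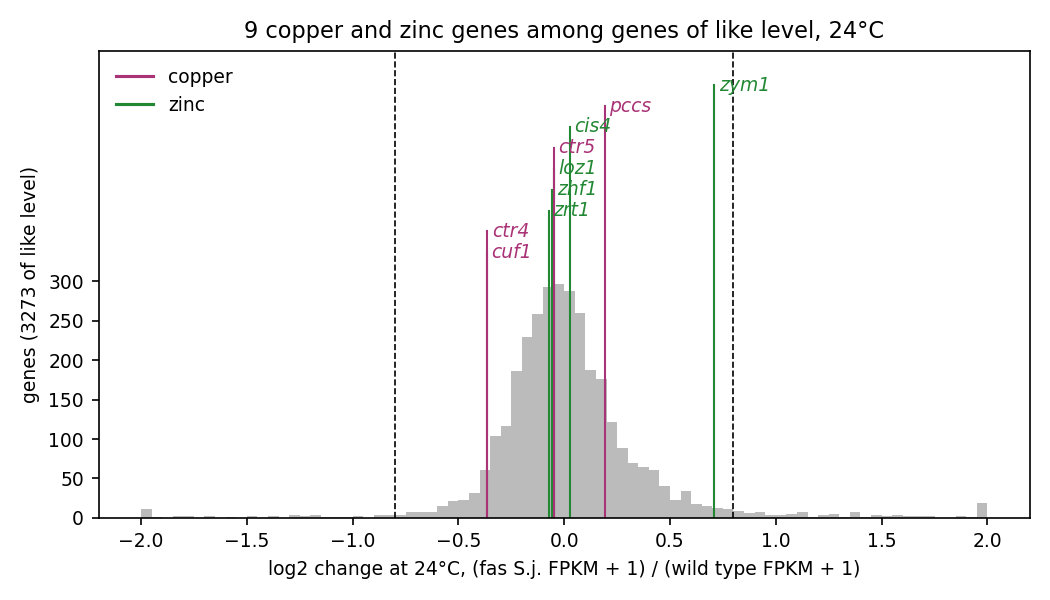
Histogram of the log2 change at 24°C for the 3273 genes whose mean FPKM lies between those of cuf1 and zhf1, with lines at the 9 genes (copper purple, zinc green), dashed lines at the limit of 0.8, and changes beyond 2 in either direction drawn at 2. The ends are held by ctr4 and cuf1 on the left and zym1 on the right, and the other 6 lie near 0.

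Genes of a like level give the frame for these sizes. Between the mean FPKM of cuf1, 19.4, and that of zhf1, 170, lie 3273 genes, with changes from -0.40 at the 5th percentile to 0.58 at the 95th. Of the 9 genes, zym1 lay beyond the upper of these bounds, at percentile 96.4, and none below the lower. The values for cuf1 and ctr4 were at percentiles 5.87 and 6.11.

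FPKM is scaled to length, so levels can be roughly compared between the genes. The counting intervals do not cover errors in annotated length or reads from neighbours in a shared locus. In wild type at 24°C the order was zhf1, zrt1, pccs, zym1, ctr5, ctr4, cis4, loz1 and cuf1. The first 4 lay between 74.0 and 173 FPKM and the other 5 between 21.98 and 33.3 FPKM. Of the 8 neighbouring pairs in this order, 5 had overlapping counting intervals, pccs with zym1 and each pair from ctr5 down to cuf1. In fas S.j. the order was zhf1, zym1, zrt1, pccs, ctr5, cis4, ctr4, loz1 and cuf1, with overlapping intervals in 3 of 8 pairs, zym1 with zrt1, cis4 with ctr4 and ctr4 with loz1. The copper importer and both regulators, cuf1 and loz1, were thus in the lower range, while zinc transporter genes lay at both ends.

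Cysteine, histidine and methionine, residues that can bind copper or zinc, were counted in the proteins translated from the coding sequences of ASM294v3, and a different one of them was frequent in different proteins. Zym1 has 50 residues, of which 12 are cysteines (24.0%), the highest share of 5115 proteins, whose median is 1.36%. Pccs has 23 cysteines in 297 residues (7.74%, rank 17), and the copper sensor Cuf1 has 18 in 411 (4.38%, rank 136). In the importer the residue is methionine, with 25 in the 289 residues of Ctr4 (8.65%, rank 3) and 12 in the 173 of Ctr5 (6.94%, rank 22), next to a median of 2.05%. Histidine made up 5.43% of Zhf1, 5.05% of Cis4, 4.41% of Zrt1, 4.38% of Cuf1 and 4.21% of Loz1, with a median of 2.19%. These shares did not run together over the 9 proteins: histidine made up 0.673% of Pccs, and methionine 1.34% of Loz1. The genes for the 3 of these proteins with the most cysteine per length had log2 changes of both signs, 0.71 for zym1, 0.19 for pccs and -0.37 for cuf1. Histidine and methionine shares were not compared with the changes.

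At 30°C, 1 of the 9 genes has a value. The table for 30°C holds 285 genes, the highest of them with a log2 ratio of -0.50, so each one is lower in fas S.j., and they are 5.54% of the genes in the table for 24°C. The zinc importer gene zrt1 is listed, with 156 FPKM in wild type and 90.4 FPKM in fas S.j., a change of -0.78. At 24°C it differed by -0.07, so the change at 30°C less that at 24°C is -0.71 for this gene, which was not tested. A gene nearly level at 24°C could be listed at 30°C only as lower, so the sign of this difference was fixed by the listing. Among the listed genes the change of zrt1 was at percentile 32.3. The tables of the 2 temperatures were normalized separately, and the change of zrt1 at 30°C stands within the limit of 0.8. The other 8 genes were not analysed at 30°C.

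Of 25 further genes for copper, zinc and heavy metals, taken from a list made with earlier results of these data known, 24 passed the minimum of 1 FPKM at 24°C. Among these, 1 was higher by more than 0.8, 2 were lower and 21 were within it, and 14 (58.3%) lay within 0.25. Of all genes that passed the minimum, 4.19% were higher, 2.08% lower and 65.9% within 0.25. Their median was 0.00, as over all genes. The remaining gene, SPBC1348.06c, is listed at 0 in both libraries and has a near-identical copy.

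Of 10 copper handling genes, none passed 0.8 in either direction, next to 4.19% of all genes higher and 2.08% lower. At such shares few or none of 10 would pass. The vacuolar copper exporter gene ctr6 had 59.3 FPKM in wild type and 61.0 FPKM in fas S.j. The chaperone gene atx1, known from budding yeast to carry copper to the Golgi pump, differed by 0.16, and ccc2, the gene for that pump, by 0.13. For mfc1, the copper transporter of the forespore membrane, the values were 1.37 and 2.95 FPKM, a change of 0.74, which became 1.05 with a pseudocount of 0.1 in place of 1. The copies cox1101 and cox1102 are near-identical, so their values, at most 1.32 FPKM, are uncertain. The remaining genes of this list ranged from -0.31 for cuf2 to 0.18 for cox1102.

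Of 4 copper enzyme genes, 1 was higher and 1 lower by more than 0.8, next to 4.19% and 2.08% of all genes that passed the minimum. The gene of the multicopper oxidase Fio1, which serves iron uptake, had 413 FPKM in wild type and 205 FPKM in fas S.j., a change of -1.01. The copper amine oxidase gene cao2 had 13.9 and 34.3 FPKM, a change of 1.24, and its relative cao1 differed by 0.10. For sod1, whose product receives copper from Pccs, the values were 573 FPKM in wild type and 446 FPKM in fas S.j., a change of -0.36. Thus pccs was slightly higher and its client sod1 lower. The study listed fio1, cao2 and the sulfide oxidoreductase gene hmt2 as changed on these libraries, so their sizes are no independent evidence.

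**Figure D3:**
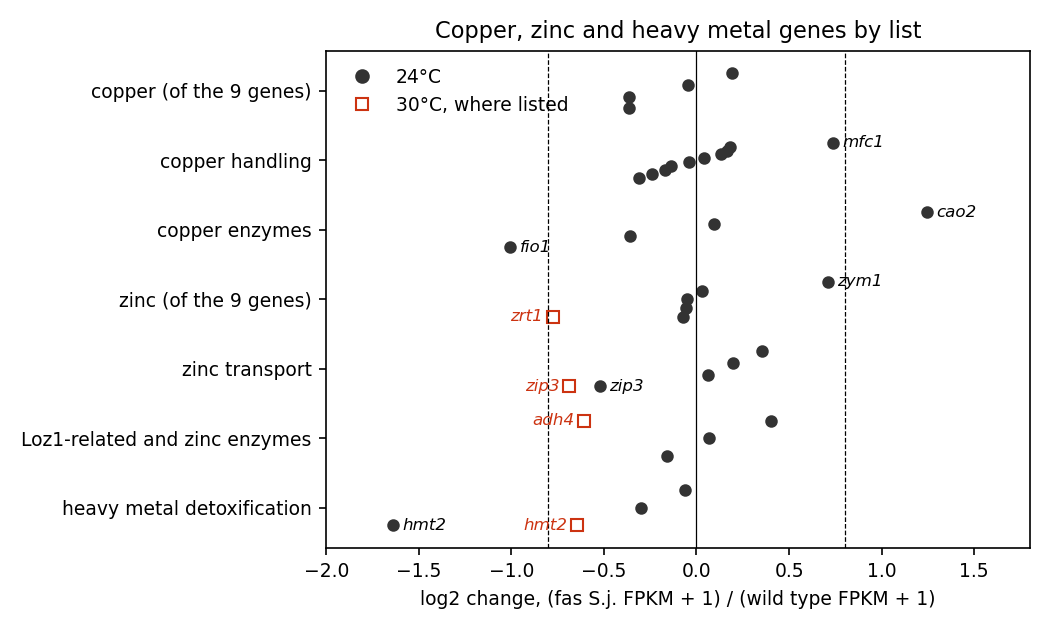
Log2 change for each gene by list, with filled circles for 24°C and open squares for 30°C where the gene is listed, and dashed lines at 0.8 in either direction. At 24°C fio1 and hmt2 lie left of the limit and cao2 right of it, and the 4 squares lie between -0.78 and -0.61.

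Of 4 zinc transport genes, none passed 0.8 at 24°C, next to 4.19% of all genes higher and 2.08% lower. The ZIP transporter gene zip3 had at 24°C 68.7 FPKM in wild type and 47.6 FPKM in fas S.j., a change of -0.52. At 30°C its values were 99.1 and 61.1 FPKM, a change of -0.69. Every gene with a value at 30°C is lower in fas S.j., so this direction was fixed by the listing. It adds no support to the fall of zip3 at 24°C. The gene zrg17, whose product works with Cis4 at the Golgi, had 34.5 FPKM in wild type and 44.4 FPKM in fas S.j., a change of 0.35, while cis4 differed by 0.03. Changes of fet4 and zip2 were 0.19 and 0.06.

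Of 4 genes that are related to Loz1 or encode zinc enzymes, 3 passed the minimum and none of them passed 0.8. Over all genes at 24°C the shares were 4.19% higher and 2.08% lower. The alcohol dehydrogenase gene adh4, which Loz1 represses, had at 24°C 66.2 FPKM in wild type and 88.0 FPKM in fas S.j., a change of 0.40. At 30°C it had 62.1 and 40.3 FPKM, a change of -0.61. The abundant genes adh1 and fba1, for an alcohol dehydrogenase and an aldolase, differed by -0.16 and 0.07.

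Of 3 heavy metal genes, 1 was lower by more than 0.8, next to 2.08% of all genes that passed the minimum. This list too was made with earlier results known. The gene hmt2, whose product oxidizes sulfide in mitochondria and is needed for cadmium tolerance, had at 24°C 881 FPKM in wild type and 282 FPKM in fas S.j., a change of -1.64. At 30°C it had 288 and 184 FPKM, a change of -0.65. The phytochelatin synthase gene pcs2 differed by -0.06, and hmt1, for the vacuolar transporter of phytochelatins, by -0.30.

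**Figure D4:**
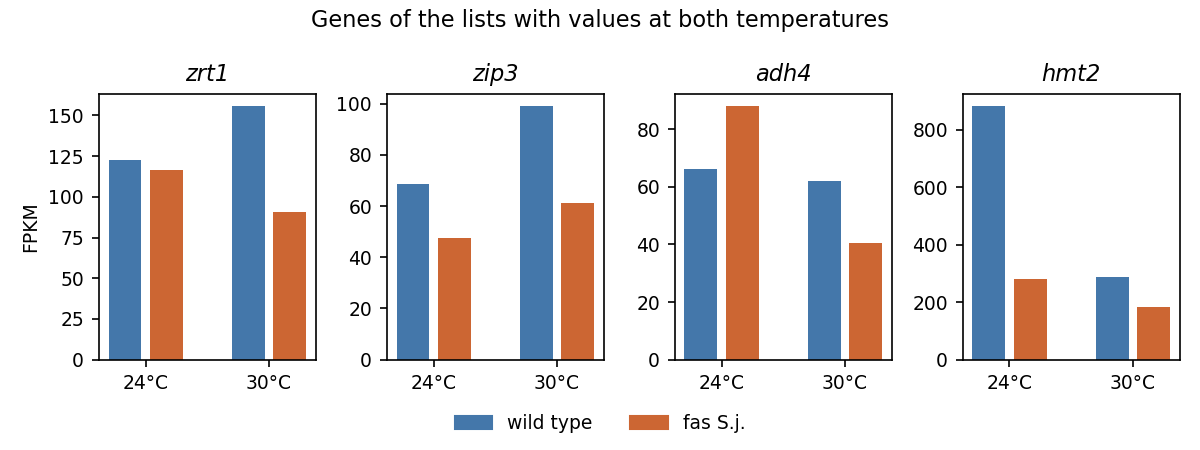
FPKM of zrt1, zip3, adh4 and hmt2 in the 4 libraries, with wild type in blue and fas S.j. in orange, 1 library per bar and no error bars. In zrt1 the bars are nearly level at 24°C, 122 and 116, and apart at 30°C, 156 and 90.4, while the bars of adh4 change order. Only genes lower in fas S.j. have values at 30°C, so the order of the bars there was fixed by the listing.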

How the data were processed

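Poly(A) RNA of 4 libraries was sequenced, 1 per strain and temperature. The authors mapped reads with TopHat and ran Cuffdiff on a Galaxy server, and the deposited FPKM values are Cuffdiff's, scaled within a temperature. Versions, normalization option and build are not given in the sources used here. Columns of fold changes, test statistics, p-values and q-values hold the authors' comparison and were not used. Levels and changes were computed from the FPKM columns, adding a pseudocount of 1, requiring a mean FPKM of 1 or more for counts and medians, and taking 0.8 as the limit. Read numbers were recovered from the spacing of low FPKM values.

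Of 5143 identifiers, 5106 matched ASM294v3. Of 2318 genes alone in their locus, 82.1% shared an end with it within 1 base, and 100% overlapped it. Positions and sequences are those of ASM294v3. Transcript lengths for estimated reads came from the locus less introns, or from ASM294v3 where loci were shared.

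The genes and lists were chosen with earlier results of these data known. All 9 genes and those of the lists are named. No likeness of pattern was computed over so few libraries. Alternatives were a pseudocount of 0.1, subtracting the median change of genes whose mean FPKM reached 10, other minimum values and a limit of 1. Biopython 1.88, blastn 2.17.0, matplotlib 3.10.9, pandas 2.3.3, numpy 2.4.6 and scipy 1.17.1 were run under Python 3.11.15, and the calculations were tested on simulated data.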

Additional observations from a re-analysis of the deposited data

Results flagged for a closer look

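The change of adh4 had opposite signs at the 2 temperatures, 0.40 at 24°C and -0.61 at 30°C, which differ by -1.01 on the log2 scale. There is 1 library per strain and temperature and the difference was not tested. The table for 30°C lists only genes that were lower in fas S.j., so a gene of these lists could show opposite signs there only in this direction.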

How the results depend on the processing

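No alternative moved the change of any of the 9 genes by more than 0.0171 on the log2 scale, and none of the 19 alternatives run for them turned a sign. The count of the 9 genes beyond the limit was 0 with a pseudocount of 0.1, with centring, which subtracts -0.01, and with a limit of 1. Among the 25 further genes the count was 3, and 4 with a pseudocount of 0.1, where mfc1 at 1.05 was the added gene. Of 87 alternatives in all, 86 left the value within 0.25 or the count within 1.5 times, and mfc1 was the exception. Over all genes, 310 were beyond 0.8 and from 227 to 352 under the alternatives. No paired analysis was possible because each strain has only 1 library at each temperature. The table for 30°C lists only genes lower in fas S.j., 1 of the 9 among them. Both depth and the number of libraries limit these values: with 206 to 4332 estimated reads per gene, the counting interval of zym1 crosses 0.8, and the spread between cultures is unknown. At 30°C, 8 of the 9 genes have no value here.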

Other observations

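The genes with a value at 30°C were grouped by metal after the values were seen, and no difference between the metals was tested. The lists themselves were made with earlier results of these data known. Of the 13 zinc genes, 3 (23.1%) are listed as lower in fas S.j. at 30°C, zrt1, zip3 and adh4. Of the 18 copper genes, 0 are listed, and of the 3 heavy metal genes 1 is, hmt2. Of all genes in the table for 24°C, 5.54% are listed, a share at which few copper or zinc genes would be. At 24°C the changes of the 3 zinc genes were -0.07, -0.52 and 0.40, so they did not share a direction there.

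For hmt2 the wild-type level was 881 FPKM at 24°C and 288 at 30°C, while fas S.j. had 282 and 184. The tables were normalized separately and each value is 1 library, so the levels at the 2 temperatures are given side by side only.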
